A study of Homo sapiens with 6 samples.

Results

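MYC, its dimer partner MAX and 44 genes for factors that build ribosomes in the nucleolus were followed in NOMO-1 cells. The cells were with or without a guide RNA against the gene of the RNA methyltransferase METTL16. The members were a list of 46 gene symbols, looked up in the deposited expression table of 15059 genes, and all 46 were present. All 46 were also among the 12734 genes tested, those that reached a signal of 1 in 2 or more libraries. The list holds MYC and MAX, 4 genes of the RNA polymerase I machinery, 4 nucleolar chaperones, 7 core proteins of small nucleolar ribonucleoproteins, 14 small subunit assembly factors and 15 large subunit assembly factors.

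Ribosomes are made in the nucleolus, where RNA polymerase I transcribes a long precursor that contains most of the ribosomal RNAs. The precursor is methylated and pseudouridylated by small nucleolar ribonucleoproteins, cleaved, folded and joined to ribosomal proteins by a large set of assembly factors, which leave as the small and the large subunit mature. MYC is a transcription factor that binds DNA as a dimer with MAX, and genes for nucleolar factors are among its best known targets. Growth of acute myeloid leukaemia cells is known to depend on MYC.

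NOMO-1 is an established human cell line from an acute monocytic leukaemia, and RNA was sequenced from 3 groups of 2 libraries. The control group received a guide RNA with no target (sgNS) and an empty vector (EV), the knockout group a guide against METTL16 (sgMETTL16) and the same empty vector, and the rescue group sgMETTL16 in cells made to overexpress METTL16 beforehand (OE-METTL16). METTL16 writes N6-methyladenosine on the transcript of MAT2A, whose product makes the methyl donor S-adenosylmethionine, and on U6 small nuclear RNA. Every group had been through viral transduction and puromycin selection at 2 ug/ml for 1 to 2 weeks, so no group stands for untreated cells, and no source describes the cells as single clones.

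The METTL16 signal was 9.89 and 9.63 in control, 6.05 and 5.83 in knockout, and 12.3 and 12.1 in rescue libraries. Its mean in knockout was 0.609 of that in control, so much of the transcript remained. The labels thus match the order of the METTL16 transcript, although these values cannot separate the introduced from the endogenous transcript. MAT2A stood at 140.2 and 132, 77.6 and 78.1, and 134 and 138 in the same order. The signal is the RSEM abundance per gene, which is scaled by transcript length, and its sum over all genes ran from 597160 to 681928 per library. A signal of 1 corresponded to an estimated 46.1 to 51.1 reads over a transcript of 2000 nt. The second control library lay lowest across all genes, with a median deviation of -0.101 on the log2 scale against 0.0024 to 0.04 in the other libraries. Whether the 2 replicates of a group came from separate cultures is not stated, and p-values therefore reflect the spread between libraries alone, which may be technical.

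Across the members, knockout libraries carried less transcript than control libraries for 22 genes and more for 3. These 22 fallen genes are 47.8% of the members, whereas 13.5% of all 12734 genes tested fell, and the 3 risen genes (NOP10, NOP2 and POLR1C) are 6.52% of the members against 26.2% of all genes that rose. With each library scaled by the median ratio to all libraries, 31 members fell and 3 rose, and of all genes 25.3% fell and 24.6% rose. The median log2 change of the members was -0.16, beside 0.067 over all genes tested, and single members ran from -1.06 to 0.42. All log2 changes are differences of log2(signal + 1), and a gene counts as fallen or risen where limma's adjusted p was under 0.05 over all genes tested. Both knockout libraries lay below both control libraries for 31 members (25.1% of all genes tested did so) and above them for 4 (43.4% of all genes). In bulk RNA, fewer cells of a type and less RNA per cell cannot be told apart.

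Rescue libraries carried more transcript than knockout libraries for 30 members, 65.2% of the list, and less for 1, NOP10. Over all genes tested, 15.6% rose and 15.9% fell in this comparison. The median of the members was 0.29 on the log2 scale beside -0.012 over all genes, and both rescue libraries lay above both knockout libraries for 41 members (34.7% of all genes did so). This comparison shares the knockout libraries with the first, so the 2 sets of values are not independent.

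No member passed 0.05 between rescue and control by limma, where 0.228% of all genes rose and 0.055% fell. At an unadjusted p under 0.05 there were 14 members, all 14 higher in rescue, while over all genes 1463 of 12734 had such a p and 1327 of those were higher. The median of the members was 0.12 beside 0.061 over all genes, and 32 members had both rescue libraries above both control libraries while MAX alone had both below. Over all genes tested these shares were 34.6% above and 5.33% below. Summed over the members, the signal was 3546 and 3348 in control, 3079 and 3040 in knockout, and 3678 and 3750 in rescue libraries. The knockout sums lay below the others and the rescue sums above both control sums. As a share of all signal in a library, the members made up 0.530% and 0.541% in control, 0.474% and 0.509% in knockout, and 0.541% and 0.550% in rescue, so that knockout was again lowest but rescue and control met. Without NPM1 and NCL, the most abundant members, the sums were 2260 and 2123, 2008 and 1962, and 2362 and 2395.

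**Figure D1:**
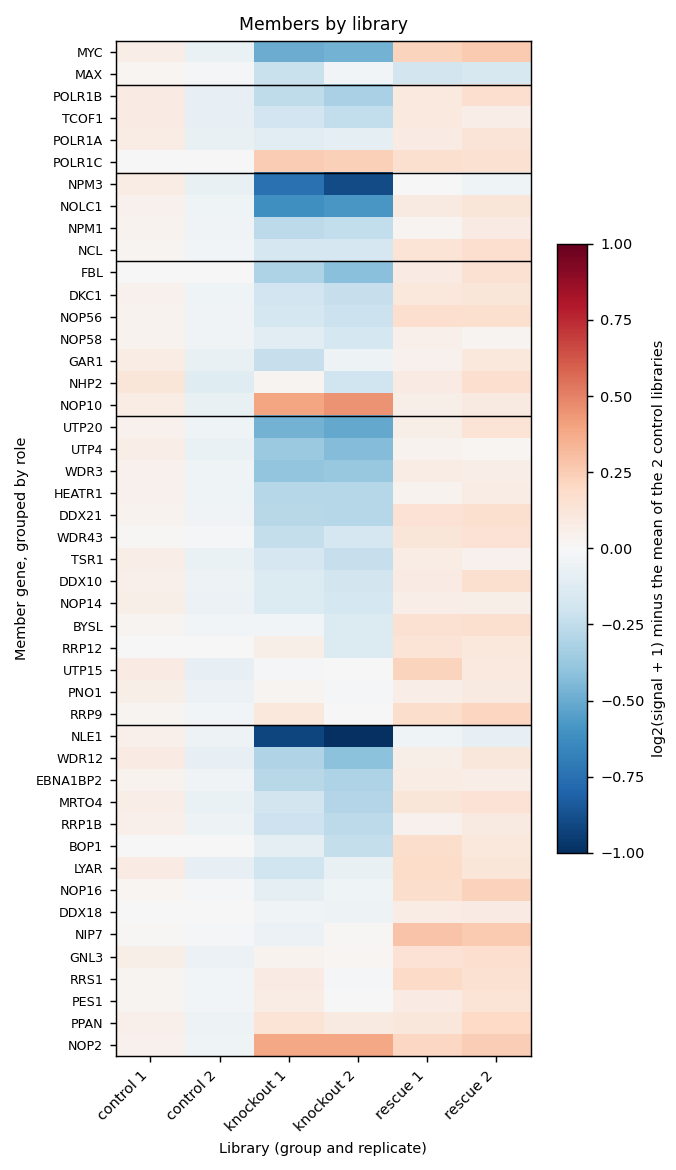
Each row is a member, grouped by role from MYC and MAX at the top to large subunit assembly at the bottom, and each column is a library; colour gives log2(signal + 1) minus the mean of the 2 control libraries, limited to -1 and 1. The knockout columns are bluest for NLE1 and NPM3 and red for NOP10, NOP2 and POLR1C.

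Because MYC and MAX are known to bind the hexamer CACGTG, which reads the same on both strands, promoter windows of the members were searched for it. The windows run from 250 bases before to 50 bases after a transcription start in RefSeq (GRCh38.p14), and 37 of the 46 members had one. The hexamer was present for 18 of these 37 members, 48.6%, and for 12.8% of the 9121 genes tested that had a window. A gene counted where any of its windows held the hexamer, with 46 windows for the 37 members and 13050 for the 9121 genes. Median GC content was 61.3% in member windows and 64.7% in those of all genes tested. The share with the hexamer was 8 of 18 among fallen members, 2 of 3 among risen members and 8 of 16 among members not called. Over all genes tested these shares were 15.5%, 12.3% and 12.4%. Of 20 matches in member windows, 17 began within 50 bases of the start. The windows end 50 bases after the start, so only the 7 matches wholly before it could begin farther away. Positions were not counted over all genes. The sequences below are shown because they place the hexamer, in capitals, beside the start of 3 members that fell (UTP20, UTP4 and DDX21) and of NOP10, which rose; each is the last 60 bases before the window's final 50, on the gene's strand.
UTP20 (chr12:101280045-101280104, plus strand): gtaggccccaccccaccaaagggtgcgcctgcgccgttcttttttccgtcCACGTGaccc
UTP4 (chr16:69132589-69132648, plus strand): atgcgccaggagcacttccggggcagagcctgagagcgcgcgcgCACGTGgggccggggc
DDX21 (chr10:68956587-68956646, plus strand): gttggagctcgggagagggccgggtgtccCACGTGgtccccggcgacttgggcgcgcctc
NOP10 (chr15:34343137-34343196, minus strand): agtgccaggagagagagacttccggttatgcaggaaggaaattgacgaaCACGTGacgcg

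In 12 matches the hexamer lay just after the start, and these are printed with at most 30 bases, for 3 members that fell (NLE1, FBL and MRTO4) and for NOP2, which rose.
NLE1 (chr17:35142274-35142303, minus strand): ctctttctcctcCACGTGgggacgcaggat
FBL (chr19:39846356-39846385, minus strand): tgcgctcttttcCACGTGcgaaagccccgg
MRTO4 (chr1:19251807-19251836, plus strand): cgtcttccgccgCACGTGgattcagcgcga
NOP2 (chr12:6568242-6568268, minus strand): aggtccggattgCACGTGgagggccgc
The windows of NPM3 and WDR12, which also fell, held no CACGTG, and the 60 bases before their starts are given for comparison.
NPM3 (chr10:101783447-101783506, minus strand): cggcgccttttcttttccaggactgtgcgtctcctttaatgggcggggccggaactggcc
WDR12 (chr2:202911674-202911733, minus strand): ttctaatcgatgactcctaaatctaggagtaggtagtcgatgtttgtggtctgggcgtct
A match describes the letters of a window and not binding, and its absence says only that these letters are not there.

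MYC itself fell in knockout and was higher in rescue. Its signal was 95.7 and 87.1 in control, 64.3 and 65.3 in knockout, and 106 and 109.7 in rescue libraries. Knockout libraries lay below all others and rescue libraries above all others, with no overlap between any groups. The log2 change was -0.49 ± 0.059 (SE) in knockout minus control (adjusted p = 2.87e-05) and 0.73 ± 0.059 in rescue minus knockout (adjusted p = 1.49e-06). Rescue exceeded control by 0.24 ± 0.059, which did not pass (adjusted p = 0.114); over 14 alternative settings this p ran from 0.00569 to 0.557 and passed 0.05 in 5. MAX, which MYC needs to bind DNA, had a signal of 13.0 and 12.7 in control, 10.9 and 12.6 in knockout, and 11.2 and 11.4 in rescue libraries. The control libraries were highest, and the rescue values fell between the 2 knockout values. No comparison of MAX passed, with a log2 difference of -0.12 between knockout and control (adjusted p = 0.266), -0.048 between rescue and knockout (adjusted p = 0.703) and -0.17 between rescue and control (adjusted p = 0.472).

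Among the genes of the RNA polymerase I machinery, POLR1B and TCOF1 fell in knockout and POLR1C rose. POLR1B, the second largest subunit of the enzyme, had a signal of 26.6 and 23.6 in control, 20.9 and 19.8 in knockout, and 27.0 and 28.3 in rescue libraries. Knockout was lowest without overlap, by -0.29 ± 0.074 against control (adjusted p = 0.00698), and rescue exceeded knockout by 0.42 (adjusted p = 0.000811). TCOF1 encodes treacle, a scaffold that brings the polymerase to its genes. Its signal was 29.03 and 25.7, then 23.8 and 22.8, then 29.3 and 28.6 in control, knockout and rescue. The knockout libraries were again lowest, while control and rescue overlapped, with changes of -0.22 ± 0.072 (adjusted p = 0.0267) and 0.30 (adjusted p = 0.00606). POLR1C, a subunit that RNA polymerase I shares with RNA polymerase III, took the opposite course.

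The signal of POLR1C was 30.3 and 30.1 in control, 36.2 and 35.8 in knockout, and 33.8 and 33.7 in rescue libraries. The 3 groups did not overlap, and rescue lay between the other two. It rose by 0.25 ± 0.061 in knockout (adjusted p = 0.00557), and rescue minus knockout was -0.091 (adjusted p = 0.274). For POLR1A, the largest subunit, neither comparison passed, at -0.098 (adjusted p = 0.31) and 0.20 (adjusted p = 0.0504), although knockout minus control passed in 3 of 14 alternatives and rescue minus knockout in 7. The knockout calls of POLR1B and POLR1C each depended on 1 knockout library: adjusted p was 0.0518 for POLR1B without knockout replicate 2 and 0.0577 for POLR1C without knockout replicate 1. That of TCOF1 did not pass in 4 alternatives, with adjusted p from 0.0555 to 0.16, and POLR1C overlaps XPO5, YIPF3 and LRRC73 on the other strand.

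All 4 nucleolar chaperones fell in knockout, with a median log2 change of -0.43, and all 4 rose in rescue against knockout, with a median of 0.51. Of all genes tested, 13.5% fell in knockout and 15.6% rose in rescue against knockout. NPM3, a small relative of nucleophosmin that binds it, had a signal of 63.8 and 57.3 in control, 35.6 and 32.1 in knockout, and 60.7 and 58.5 in rescue libraries. The knockout libraries were lowest, and the rescue values lay within the range of the controls. The mean went from 60.5 ± 4.57 to 33.9 ± 2.49 (SD, n = 2), a log2 change of -0.82 ± 0.070 (SE; adjusted p = 1.34e-06), and the change in rescue was 0.80 (adjusted p = 3.03e-06). NOLC1, also called Nopp140, accompanies small nucleolar ribonucleoproteins between nucleolus and Cajal bodies. It had a signal of 101 and 95.4 in control, 63.8 and 65.4 in knockout, and 105 and 107 in rescue libraries. Its knockout libraries were lowest and its rescue libraries highest, with changes of -0.60 ± 0.055 (adjusted p = 3.02e-06) and 0.70 (adjusted p = 1.24e-06). NPM3 and NOLC1 lie 369 kb apart on chromosome 10.

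The abundant chaperones NPM1 and NCL fell by less. NPM1 encodes nucleophosmin, a ribosome export and assembly factor that is often mutated in acute myeloid leukaemia. Its signal of 839.7 and 798 in control was 683 and 688 in knockout and 835 and 866 in rescue libraries. Knockout was lowest without overlap, and control and rescue overlapped, with changes of -0.25 ± 0.051 (adjusted p = 0.0015) and 0.31 (adjusted p = 0.000565). Under quantile normalization neither change passed, at -0.034 (adjusted p = 0.238) and 0.053 (adjusted p = 0.0978). NPM1 has 45 named pseudogene copies in the annotation, none of them in the table, so its value may hold or lack reads shared with them. NCL, or nucleolin, which binds the ribosomal RNA precursor, changed by -0.17 (adjusted p = 0.0155), a call that did not pass in 3 alternatives (adjusted p 0.0613 to 0.0893), and by 0.32 in rescue (adjusted p = 0.000347).

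**Figure D2:**
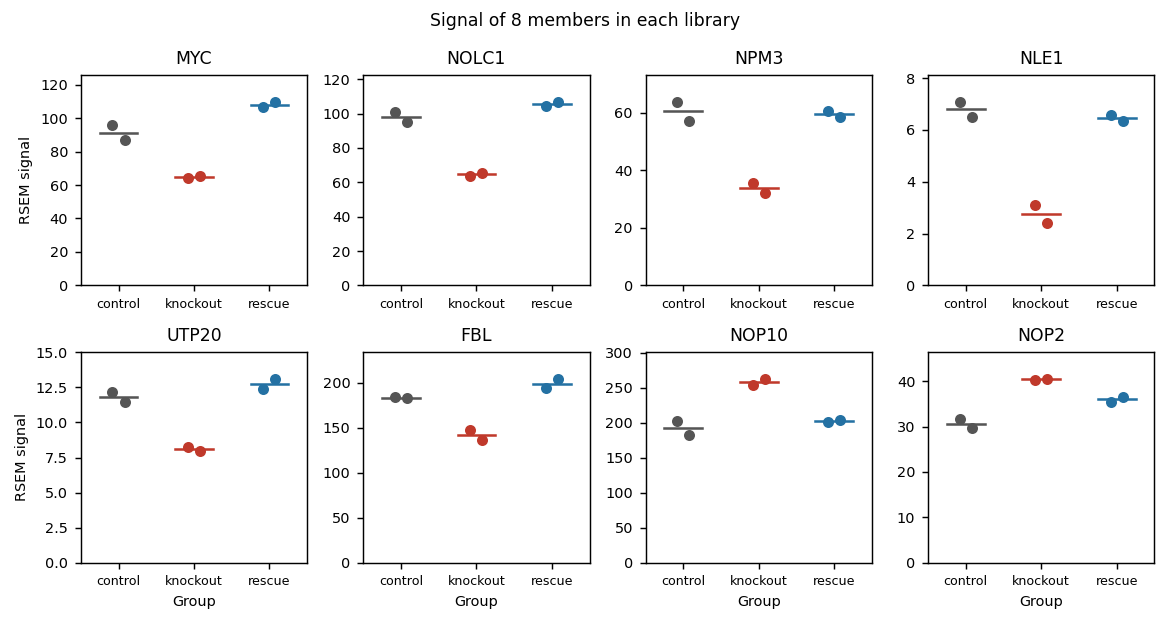
RSEM signal (vertical axis, from 0) of 8 members in control, knockout and rescue libraries; each point is a library and each line the mean of 2. Both knockout points lie below the control and rescue points for MYC, NOLC1, NPM3, NLE1, UTP20 and FBL, and above them for NOP10 and NOP2.

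The small nucleolar ribonucleoproteins come as box C/D particles, which methylate ribosomal RNA, and box H/ACA particles, which convert uridine to pseudouridine. In the box C/D set, FBL and NOP56 fell in knockout and FBL, NOP56 and NOP58 rose in rescue against knockout. FBL, fibrillarin, the methyltransferase itself, had a signal of 184 and 182 in control, 148 and 137 in knockout, and 194 and 204 in rescue libraries. The 3 groups did not overlap, with rescue highest and knockout lowest, and the changes were -0.36 ± 0.056 (adjusted p = 0.000189) and 0.48 (adjusted p = 3.54e-05). NOP56, a scaffold of the particle, changed by -0.20 (adjusted p = 0.00915) and 0.36 (adjusted p = 0.000219), and its partner NOP58 by -0.14 (adjusted p = 0.0574) and 0.18 (adjusted p = 0.0254). The knockout call of NOP56 did not pass in 2 alternatives, and the rescue call of NOP58 in 5.

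The 4 proteins of the box H/ACA core, which form 1 complex, had different values. DKC1, dyskerin, the pseudouridine synthase, had a signal of 84.6 and 79.4 in control, 71.7 and 69.6 in knockout, and 88.4 and 89.4 in rescue libraries. The groups did not overlap, and its changes were -0.21 ± 0.056 (adjusted p = 0.00904, or 0.0755 without knockout replicate 2) and 0.33 (adjusted p = 0.000726). NOP10, the smallest core protein, which binds dyskerin directly, rose in knockout. Its signal was 202 and 183 in control, 253 and 262 in knockout, and 200.3 and 204 in rescue libraries. Both knockout libraries were above all others, and control and rescue overlapped. The log2 change was 0.42 ± 0.057 (adjusted p = 6.84e-05), and rescue was lower than knockout by -0.35 (adjusted p = 0.0005); both calls held in all 14 alternatives. NHP2 and GAR1, the other core proteins, did not pass in either comparison, at -0.088 and -0.14 in knockout (adjusted p 0.449 and 0.176) and 0.22 for both in rescue (adjusted p 0.0722 and 0.0534). Calls of NHP2 and GAR1 in rescue against knockout appeared in 5 and 8 alternatives. The window of NOP10 held 2 CACGTG matches, 1 of them printed above; EBNA1BP2, which fell, also had 2, in 2 windows.

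Of 14 small subunit assembly factors, 7 fell in knockout and 0 rose, with a median of -0.18. By the same threshold 13.5% of all genes tested fell and 26.2% rose. At an unadjusted p under 0.05 there were 9 of the 14, 0 of them higher, while over all genes 6169 of 12734 had such a p and 4047 of those were higher. UTP20, a large scaffold protein of the early small subunit precursor, had a signal of 12.2 and 11.5 in control, 8.26 and 7.97 in knockout, and 12.4 and 13.1 in rescue libraries. Its knockout libraries were lowest and its rescue libraries highest, with changes of -0.49 ± 0.081 (adjusted p = 0.000325) and 0.59 (adjusted p = 0.000137). UTP4, or cirhin, belongs to the first module to join the precursor. Its signal was 45.2 and 41.1, 33.1 and 31.7, and 44.1 and 43.8 in control, knockout and rescue. Knockout was lowest, control and rescue overlapped, and the changes were -0.40 ± 0.065 (adjusted p = 0.000292) and 0.43 (adjusted p = 0.000292). UTP4 shares part of its span with SNTB2 on the same strand.

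WDR3, a repeat protein of another early module, had a signal of 40.7 and 38.5 in control, 29.8 and 30.1 in knockout, and 41.6 and 41.4 in rescue libraries. The groups did not overlap and knockout was lowest, with changes of -0.39 ± 0.061 (adjusted p = 0.000241) and 0.46 (adjusted p = 0.000123). HEATR1 and WDR43 changed by -0.29 (adjusted p = 0.00197) and -0.20 (adjusted p = 0.0131). The call of WDR43 did not hold without knockout replicate 1, where its change was -0.17. The RNA helicase DDX21 changed by -0.28 (adjusted p = 0.00121) and the late factor TSR1 by -0.20 (adjusted p = 0.0362), the latter not passing in 7 of 14 alternatives. The remaining 7 small subunit factors (BYSL, DDX10, NOP14, PNO1, RRP9, RRP12 and UTP15) ran from -0.16 for DDX10 to 0.052 for RRP9. UTP15 stood at -0.0044 (adjusted p = 0.975). Against knockout, 10 of the 14 rose in rescue: the 7 above and NOP14 (0.22, adjusted p = 0.0179), BYSL (0.24, adjusted p = 0.00497) and DDX10 (0.28, adjusted p = 0.00857), and the calls of these 3 and of TSR1 did not pass in 1 to 5 alternatives. Over all genes tested, 15.6% rose in this comparison. Rescue minus knockout was 0.34 for HEATR1, 0.33 for WDR43, 0.43 for DDX21 and 0.255 for TSR1. The other four, UTP15, RRP9, RRP12 and PNO1, were at 0.071 to 0.16, with adjusted p from 0.131 to 0.479, and RRP9 passed in 2 alternatives.

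The 15 large subunit assembly factors spread widest in knockout. NLE1, WDR12, EBNA1BP2, MRTO4 and RRP1B fell, NOP2 rose, and the median was -0.0705. Thus 33.3% of the 15 fell and 6.67% rose, where 13.5% and 26.2% of all genes tested did. NLE1, or Notchless, which the AAA ATPase MDN1 strips from the late large subunit precursor, had the lowest log2 change of all members. Its signal was 7.08 and 6.51 in control, 3.11 and 2.39 in knockout, and 6.58 and 6.35 in rescue libraries. Both knockout libraries were below all others, and control and rescue overlapped. The mean went from 6.79 ± 0.403 to 2.75 ± 0.5097 (SD, n = 2), a ratio of 0.405, and the log2 change was -1.06 ± 0.11 (SE; adjusted p = 6.45e-06) in knockout and 1.00 in rescue against knockout (adjusted p = 1.96e-05). NLE1 was also the member of lowest signal in control and lies on chromosome 17 at 35128753 to 35142315, where it overlaps FNDC8 on the other strand.

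EBNA1BP2, the partner of several early large subunit factors, had a signal of 68.3 and 65.3 in control, 54.8 and 53.6 in knockout, and 70.2 and 70.1 in rescue libraries. Knockout was lowest and rescue highest without overlap, with changes of -0.30 ± 0.056 (adjusted p = 0.000983) and 0.37 (adjusted p = 0.000319). NOP2, which methylates a cytosine of the large subunit RNA, went the other way. Its signal was 31.7 and 29.6 in control, 40.3 and 40.4 in knockout, and 35.4 and 36.5 in rescue libraries. The groups did not overlap, and rescue lay between control and knockout. NOP2 rose by 0.39 ± 0.063 in knockout (adjusted p = 0.000293), with the call kept in all 14 alternatives; rescue minus knockout was -0.16 (adjusted p = 0.0632, passing in 5 alternatives) and rescue minus control 0.22 (adjusted p = 0.177).

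WDR12, BOP1 and PES1 form a complex that acts on the large subunit precursor, and their values differed. In knockout minus control, WDR12 changed by -0.35 (adjusted p = 0.00203), BOP1 stood at -0.17 (adjusted p = 0.0709) and PES1 at 0.039 (adjusted p = 0.666). In rescue minus knockout, WDR12 changed by 0.44 (adjusted p = 0.000686), BOP1 by 0.31 (adjusted p = 0.00463, not passing in 2 alternatives) and PES1 stood at 0.073 (adjusted p = 0.419). Whether the 3 genes differ from each other was not tested. MRTO4, which holds the place of a stalk protein until the large subunit matures, changed by -0.24 (adjusted p = 0.0124) and 0.37 (adjusted p = 0.00105), and RRP1B, a nucleolar protein that also recruits a phosphatase, by -0.24 (adjusted p = 0.0101) and 0.30 (adjusted p = 0.00304). The knockout calls of MRTO4 and RRP1B did not pass without knockout replicate 2 (adjusted p 0.13 and 0.0912).

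The other 7 large subunit factors, LYAR, NOP16, DDX18, NIP7, GNL3, RRS1 and PPAN, did not pass in knockout and ran from -0.14 for LYAR to 0.11 for PPAN. LYAR, NOP16 and NIP7 rose in rescue against knockout, by 0.29, 0.27 and 0.30 (adjusted p 0.0101, 0.0059 and 0.00553), calls that did not pass in 2 alternatives each. NIP7 had the highest ratio of rescue to control among the members, 1.22, with signals of 17.7 and 17.3 in control and 21.6 and 21.2 in rescue libraries. This difference of 0.27 ± 0.070 did not pass (adjusted p = 0.132) and did so in 2 of 14 alternatives. GNL3, or nucleostemin, DDX18, RRS1 and PPAN stood at 0.13, 0.12, 0.14 and 0.043 in rescue minus knockout (adjusted p 0.0923, 0.112, 0.124 and 0.662). GNL3 and DDX18 each passed there in 5 of 14 alternatives and RRS1 in 2.

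**Figure D3:**
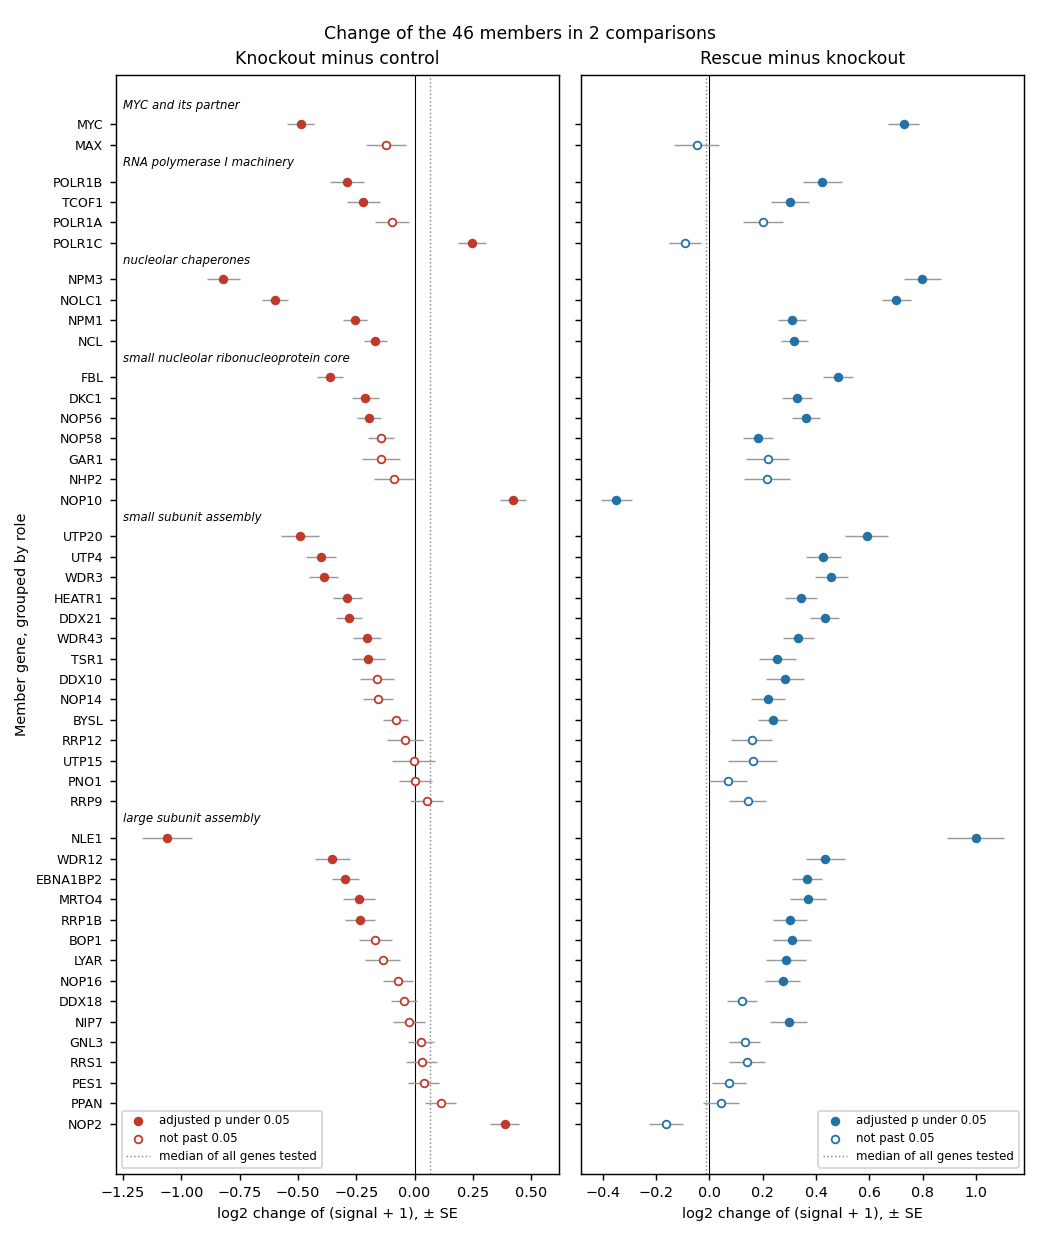
Log2 change of (signal + 1) with its SE for each member in knockout minus control (left) and rescue minus knockout (right), grouped by role; filled points passed an adjusted p of 0.05 and open points did not, and the dotted line is the median of all genes tested (0.067 and -0.012). On the left 22 filled points lie below 0 and 3 above, and on the right 30 lie above 0 and NOP10 below. The 2 panels share the knockout libraries.

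Levels of the members in control spanned a mean signal of 6.79 for NLE1 to 819 for NPM1, with a median of 33.7. The median member stood at the 84.2 percentile of control signal among the genes tested, and 44 of 46 were above the middle of that distribution. The ratio of mean signal in knockout to control ran from 0.405 for NLE1 to 1.34 for NOP10, with a median of 0.889. The ratio of rescue to control ran from 0.880 for MAX to 1.22 for NIP7, with a median of 1.09.

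Other genes of the same pathways were counted in the same fit, where 13.5% of all genes tested fell and 26.2% rose in knockout. Of 40 further large subunit factors, 15 fell and 2 rose in knockout, with a median of -0.12; NOC2L, MDN1 and NOC3L had the smallest p and changed by -0.60, -0.55 and -0.54. MDN1 is the ATPase that acts on NLE1. The 38 further small subunit factors had 7 fallen and 6 risen genes and a median of 0.045, with ESF1 at -0.49, NOL6 at -0.43 and LTV1, which leaves the small subunit late, at 0.37. Without knockout replicate 1, fewer of the same 38 passed in either direction, as did fewer of all genes tested. Among 11 other RNA polymerase I subunits and factors, 4 fell and 1 rose, with POLR1E at -0.39, TAF1B at -0.41 and the termination factor TTF1 at 0.32. In the RNA exosome, which trims ribosomal RNA ends, 2 of 14 fell and 2 rose, with EXOSC2 at -0.79, EXOSC5 at -0.23 and DIS3 at 0.27. The fallen shares of the exosome, 14.3%, and of the further small subunit factors, 18.4%, were near that of all genes.

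MYC targets outside the nucleolus had 18 of 30 fallen and 1 risen in knockout (median -0.18), and 26 risen and 0 fallen in rescue against knockout (median 0.28). Of all genes tested, 13.5% fell and 26.2% rose in knockout, and 15.6% rose and 15.9% fell in rescue against knockout. This list, like the others, was chosen with earlier results of these data known, so its shares may partly reflect that choice. CCND2, a cyclin of the G1 phase, fell by 0.83 on the log2 scale, IMPDH2, which makes guanine nucleotides, by 0.73, and PAICS, of purine synthesis, by 0.67. Without knockout replicate 2, fewer of the 30 fell, as did fewer of all genes tested. Genes for partners and regulators of MYC had 1 fallen and 3 risen of 14, among them MXD4, a MAX partner that represses MYC targets, which rose by 0.70 (adjusted p = 0.000469) with signals of 2.28 and 1.67 in control, 4.09 and 3.52 in knockout, and 2.15 and 2.36 in rescue libraries. The kinase gene PIM1 fell by 0.25, and MLXIP rose by 0.27. Of 77 cytoplasmic ribosomal protein genes, whose products the members assemble, 43 fell and 3 rose (median -0.15), with RPS12 at -0.82, RPL13A at -0.72 and RPLP0 at -0.68. Under quantile normalization 19 of the 77 fell and 14 rose, where 25% of all genes fell and 24.7% rose. Under median ratio scaling 62 of the 77 fell and 1 rose, where 25.3% of all genes fell and 24.6% rose. In rescue against knockout 61 of the 77 rose and 0 fell, where 15.6% of all genes rose and 15.9% fell. With quantile normalization 18 rose, a share near the 22.1% of all genes that did, and 6 fell, beside 22.3%. Median ratio scaling gave 63 risen and 0 fallen, where 22.8% of all genes rose and 21.5% fell.

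**Figure D4:**
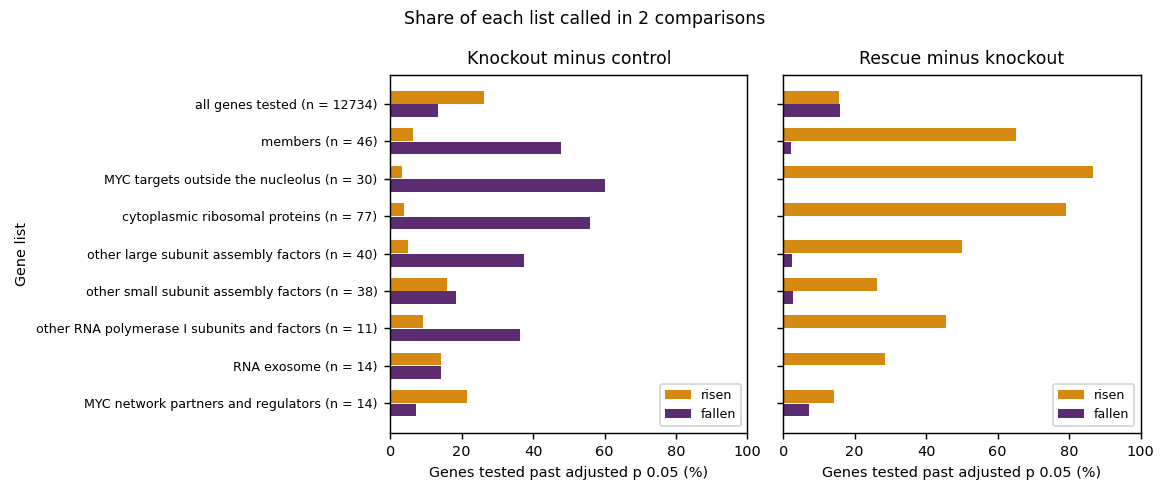
Percent of each gene list that rose (orange) or fell (purple) at an adjusted p under 0.05 in knockout minus control (left) and rescue minus knockout (right); n is the number of genes tested, and the top bars are all 12734 genes. Members fell in 47.8% and rose in 6.52% of cases on the left, and rose in 65.2% and fell in 2.17% on the right.

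The shares with CACGTG in the promoter window were 54.2% for the MYC targets outside the nucleolus, 36.7% and 30.6% for the further small and large subunit factors, 30.8% for the partners and regulators of MYC, 9.09% for the exosome, 6.56% for ribosomal protein genes and 0 of 7 for the other RNA polymerase I genes. In the same order, 60%, 18.4%, 37.5%, 7.14%, 14.3%, 55.8% and 36.4% of the genes tested fell in knockout, beside 13.5% of all genes. Of all genes tested that had a window, 12.8% held the hexamer. The lists differ in windows per gene, with 42 windows for 24 MYC targets and 76 for 61 ribosomal protein genes, which affects these shares. The first list was drawn up as MYC targets, and a relation between the hexamer and the fall was not tested.

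Most of the listed markers of the myeloid lineage rose in knockout, as did 26.2% of all genes tested. Of 10 myeloid identity genes tested, including SPI1, CEBPA, CD33 and LYZ, 9 rose in knockout, and their summed signal was 373 and 342 in control, 575 and 582 in knockout, and 426 and 436 in rescue libraries. ITGAM was the identity gene not called in knockout, at -0.095 (limma, adjusted p = 0.49). Of 13 granule and monocyte maturation genes, such as CTSG, ELANE and S100A8, 10 rose in knockout. Their sums were 542 and 505, 1783 and 1724, and 743 and 732 in control, knockout and rescue. Most of each sum was CTSG, at 324 and 304, 1364 and 1340, and 492 and 482, and AZU1, ITGAX and CYBB were not called in knockout. FLT3 and MPO had no row in the table used here. The part of these genes in the values of the members was not tested. Epithelial markers (3 in the table) summed to 0.883 to 1.73 per library, lymphoid markers (2) to 1.57 to 2.85 and erythroid markers (3) to 4.28 to 5.23, and no stromal marker had a row.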

How the data were processed

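RNA sequencing covered 6 libraries of NOMO-1 cells, 2 per group, with groups taken from the labels. Per the labels' protocols, ribosomal RNA was depleted and a stranded kit and a HiSeq 2500 were used. Reads went through STAR and RSEM with GRCh38 in versions not given, per the submitters' processing notes. The authors deposited 1 table with an RSEM signal per gene and library; no header states TPM or FPKM, the strand setting is not given in the sources used here, and values were used as deposited.

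The test took the 12734 genes that reached a signal of 1 in 2 or more libraries, leaving out 2325. Values of log2(signal + 1) from all 6 libraries entered a single limma-trend model (limma 3.58.1, R 4.3.3; degrees of freedom 3 residual, 11 prior), with two-sided Benjamini-Hochberg adjusted p over all genes tested and a threshold of 0.05. Adding 1 shrinks changes of low genes. The script was tested on simulated data.

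Read totals were not given. For transcripts up to 400 nt and under 4.5 reads, 75.6% to 86.5% of 89 to 108 values per library lay within 0.15 of whole multiples of a step, and the step was chosen on these same values. Symbols were matched to GENCODE 29 (13769 genes); promoter windows came from RefSeq. The members and all lists were chosen with earlier results of these data known. By rule, values in every library are given for MYC, MAX and up to 3 members per role with the smallest p in knockout minus control, and up to 3 genes are named per other list; NIP7 and the WDR12 complex were singled out after their values were seen. Alternatives were a pseudocount of 0.1, no filter, a mean of at least 5, 2 scalings, no trend, a replicate block, 2 groups only and each library left out. Other steps used Python 3.11.15.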

Additional observations from a re-analysis of the deposited data

How the results depend on the processing

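All 14 alternatives were run. Of 22 members fallen in knockout, 12 passed in every alternative (MYC, NOLC1, NPM3, FBL, NLE1, WDR12, WDR3, UTP20, UTP4, DDX21, HEATR1 and EBNA1BP2), as did 20 of 30 risen in rescue against knockout. Leaving out 1 library gave 14 (without knockout replicate 2) to 26 fallen members (without control replicate 2), where 9.37% and 17.7% of all genes fell. The members' median ran from -0.22 (without control replicate 2) to -0.12 (without control replicate 1), and that of all genes from 0.0068 to 0.13 in the same settings. The members' median was -0.21 with quantile normalization and -0.24 with median ratio scaling, where 30 and 31 members and 25% and 25.3% of all genes fell. Fallen members in rescue against knockout numbered 2 (NOP10 and NOP2) with either scaling and with only the 2 groups compared, and 1 to 2 with a library left out. In rescue against control, 2 members (MYC and NIP7) rose with a mean of at least 5, where 2.2% of all genes rose, 1 (MYC) with only the 2 groups compared, where 1.7% did, and 0 to 1 with a library left out, where 0.0471% to 1.73% did; 1 of 46 members is 2.17%. The median there was 0.042 with quantile normalization, 0.050 with median ratio scaling, and 0.066 to 0.15 with a library left out, beside -0.0012, 0.0014 and 0.0006 to 0.12 for all genes. With a replicate block, 22 members fell and 3 rose in knockout, 33 rose in rescue against knockout, and 2 (MYC and NIP7) rose in rescue against control, where 2.35% of all genes did. Deviations of same-numbered libraries from their group means correlated at -0.011, -0.048 and 0.101. Such deviations also carry counting error, so low values cannot settle whether these libraries were paired. No member changed sign with a call. The cause of these shifts was not tested. Depth is known only as an estimate, and 2 libraries per group limit the precision.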

Other observations

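The spans of 7 members hold, on the same strand, 14 small nucleolar RNAs that passed the filter, in DKC1, GNL3, NCL, NOP56, NOP58, PPAN and TSR1. Whether each lies in an intron was not checked. In knockout 1 of them fell, SNORA36A within DKC1, by 0.35 on the log2 scale (limma, adjusted p = 0.026), and 0 rose. By comparison, 13.5% of all genes tested fell and 26.2% rose. SNORD105, which lies within PPAN, was lower in rescue than in both other groups. Its signal was 5.70 and 3.35 in control, 3.53 and 3.55 in knockout, and 1.17 and 1.20 in rescue libraries, with no overlap of rescue with either, while PPAN itself did not pass in any comparison. The log2 difference was -1.31 against control (limma, adjusted p = 0.00093) and -1.06 against knockout (adjusted p = 0.00022). At 85 nt, rescue signals this low rest on very few reads. Their closeness is therefore no measure of spread, and these p-values may understate the counting error. The second RNA in PPAN, SNORD105B, was lower in rescue than in knockout by 0.89 (adjusted p = 0.0354), but its libraries overlapped, at 2.96 and 5.91 in knockout and 0.981 and 3.03 in rescue. In the same comparison SNORD86 within NOP56 rose by 0.65 (adjusted p = 0.000906) and SNORA36A by 0.32 (adjusted p = 0.0452), both without overlap of the 2 groups. Thus 2 of the 14 rose and 2 fell in rescue against knockout, shares near the 15.6% and 15.9% of all genes tested. These RNAs are 71 to 222 nt long, so their values rest on few reads and carry large counting error.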
